A study of Mus musculus with 12 samples.

Results

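The 48 genes described here encode collagens, basement membrane proteins, elastic fibre and other matrix glycoproteins, and the enzymes that fold, crosslink or cut them. They were taken by symbol, and all 48 had a row among the 20194 genes of the RNA table. The ATAC table assigned 264 of its 38244 peaks to 47 of them, and none to Col15a1. Polyadenylated RNA came from muscle of C57BL/6 mice, 3 libraries after subcutaneous injection of 500000 LLC cells (Lewis lung carcinoma, a mouse line that causes cachexia) and 3 after PBS, with tissue taken on day 22. The labels do not say which muscle it was, and they give cachexia as the cell type of both groups. ATAC-seq, in which the Tn5 transposase cuts open chromatin, was made on C2C12 myotubes, 3 libraries kept for 24 hours in medium from Colon-26 (C26) carcinoma cultures and 3 controls. C2C12 is a single mouse line that fuses into muscle cells, seeded here in triplicate. Its genotype label is C3H, and its cell type label says myoblast although titles and protocol speak of myotubes. Neither label set says that the 3 libraries of a group were separate animals or independent cultures, so a p-value speaks only of the spread among these libraries, and that spread may be technical. The RNA and the chromatin thus come from different systems and different tumour lines.

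Muscle fibres are wrapped in a basement membrane built on networks of type IV collagen and laminin, joined by nidogens. Outside it lies an interstitial matrix of fibrils, mainly types I and III collagen with type V inside, which collagen VI, small leucine-rich proteoglycans and fibronectin link to cells. Fibrillar collagens are made mostly by fibroblasts and tendon or bone cells. Type IV collagen also comes from endothelial and muscle cells. In bulk tissue, fewer cells of a type and less RNA per cell cannot be told apart.

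The RNA libraries held 16.996 to 20.1 M tags. Markers of other tissues varied between the libraries. Summed FPKM of 7 osteoblast and bone markers was 47.8, 35.8 and 3.37 in LLC 1 to 3, against 4.78, 166 and 129.5 in PBS 1 to 3. Bglap and Mepe, bone-specific genes, were listed at 0 in LLC 3 and PBS 1, and neutrophil and erythroid markers were low in the same 2 libraries. Principal component 1 (60.9% of the variance) had PBS 1 (-63.7) and LLC 3 (-41.0) at one end. Genes of skeletal muscle were high throughout, with a summed 40259 to 47244 FPKM over 8 markers in LLC and 35606 to 43553 FPKM in PBS muscle. Epidermal markers summed to 1163, 51.6 and 464 FPKM in LLC 1 to 3, against 0.452, 5.34 and 87.2 in PBS 1 to 3. Because bone makes type I collagen, type I and type IV collagen are also given with a bone marker score as covariate, and type I between LLC 3 and PBS 1, the 2 libraries nearly free of bone markers. Of the other members, Lama2, Lamc1 and Timp3, all within 0.1 of 0, and Timp1 changed sign with the covariate.

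All 48 genes averaged at least 1 FPKM (fragments per kilobase of exon and M tags, M being 10 to the power of 6) and were tested with limma on log2(FPKM + 1). None of the 48 passed an adjusted p of 0.05, nor did any of the 12981 genes tested (0%). An unadjusted limma p under 0.05 was reached by 5 members on the higher side, against 5.82% of all genes tested, and by 10 on the lower side, against 1.82% (7.63% in both directions). The 3 LLC libraries lay wholly above the 3 PBS libraries for 6 members (9.5% of all genes tested) and wholly below for 12 (3.94%). Without PBS 3 the second count was 26, and without LLC 1 it was 20. Leaving out a library can only keep or raise such a count. The share over all genes was not taken for these counts, so 3.94% is no background for them. Log2 differences ran from -2.12 to 0.75, with 17 members above 0 and 31 below, a median of -0.33, and a median of 0.01 over all genes tested. On reads recovered from the deposited values, edgeR called 0 genes at an adjusted p of 0.05 and 932 at an unadjusted p under 0.05. DESeq2, an alternative, called 1 member higher (1.88% of genes tested) and 5 lower (0.525%).

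**Figure D1:**
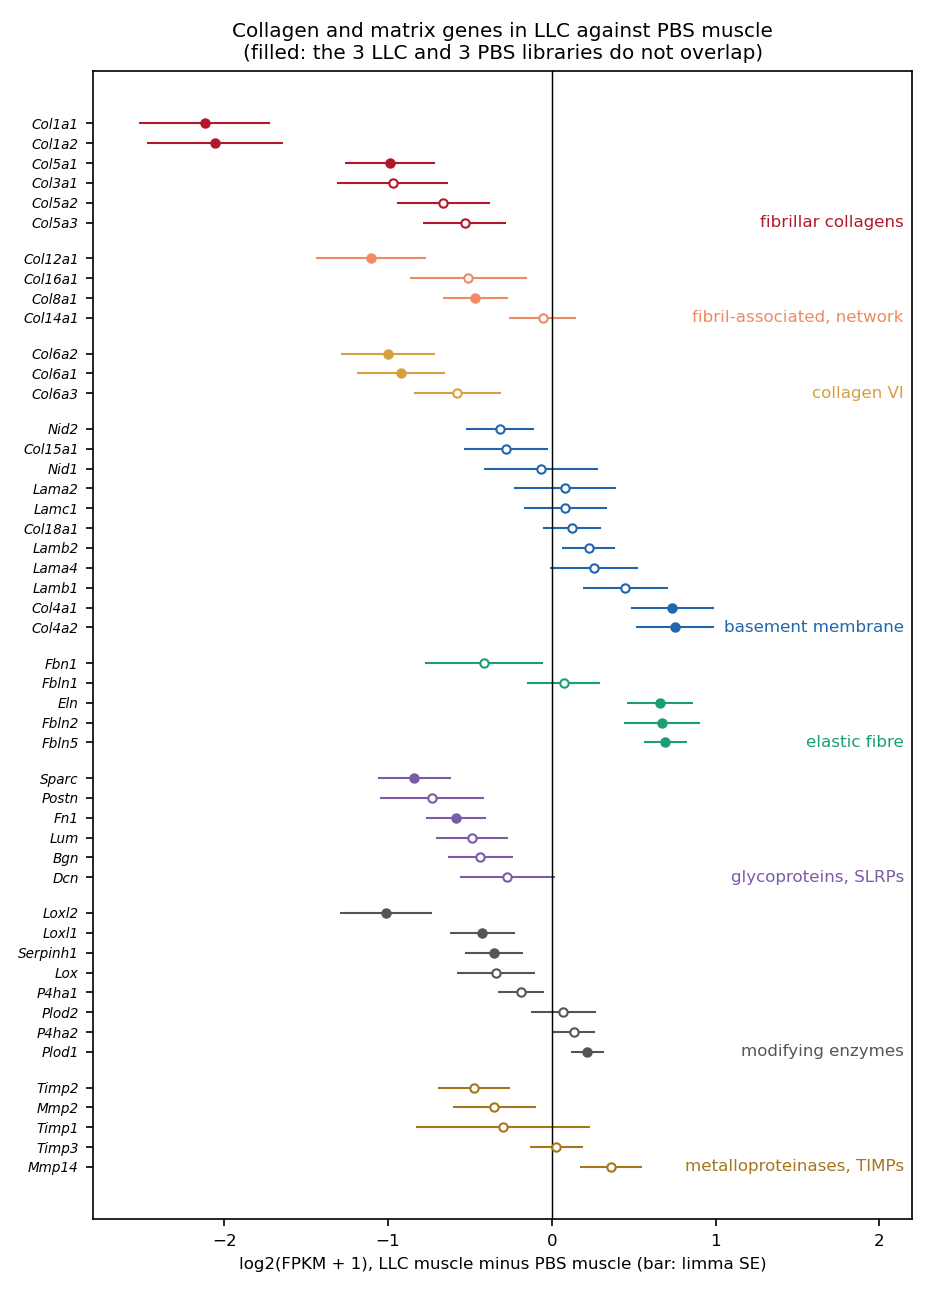
Log2 difference in FPKM + 1 between LLC and PBS muscle for the 48 genes, grouped by class, with the limma SE as bars. Filled points mark genes whose 3 LLC and 3 PBS libraries do not overlap. Type I collagen lies farthest left, at -2.12 and -2.06, and the type IV chains, Eln, Fbln2 and Fbln5 lie between 0.66 and 0.75.

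Each of the 6 fibrillar collagens was below 0 in LLC against PBS muscle, and the median log2 difference was -0.98. Col1a1, the alpha 1 chain of type I collagen, at chr11:94936224-94953042 on the plus strand (mm10), was at 79.0, 40.4 and 36.3 FPKM in LLC 1 to 3, against 159, 334 and 188 FPKM in PBS 1 to 3. Every LLC library lay well below every PBS library. The means were 51.9 ± 23.5 and 227 ± 93.6 FPKM (SD, n = 3 each), a ratio of 4.37 between PBS and LLC, and the limma log2 difference was -2.12 (SE 0.40, adjusted p = 0.233). Col1a2, the alpha 2 chain, was at 134, 64.4 and 55.8 FPKM in LLC 1 to 3, against 266, 497 and 271 in PBS 1 to 3. These groups did not overlap either, and the log2 difference was -2.06 (SE 0.41, limma adjusted p = 0.264). DESeq2 gave both genes adjusted p-values under the threshold, 2.04e-05 for Col1a1 and 0.000184 for Col1a2. With the bone score as covariate the differences were -1.88 and -1.84. Between LLC 3 and PBS 1 alone they were -2.10 and -2.23. That is 1 library against 1, and the 2 differed in markers of other tissues. Summed FPKM of 7 tendon markers was 39.2 in LLC 3 and 428 in PBS 1, the lowest and highest of all libraries. For 5 adipocyte markers it was 1135 and 295. The part of these tissues in the difference was not tested.

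The other fibrillar chains differed less. Col3a1, the chain of type III collagen, was at 98.1, 64.8 and 66.5 FPKM in LLC muscle, against 178, 199.98 and 91.6 in PBS muscle, where PBS 3 was below LLC 1. Col5a1, whose product sits inside type I fibrils and limits their width, was at 8.57, 5.31 and 5.22 FPKM in LLC muscle, against 13.1, 18.2 and 9.78 in PBS muscle, without overlap (limma adjusted p = 0.427, DESeq2 0.0372). Col5a2 and Col5a3, the other type V chains, had log2 differences of -0.66 and -0.53, with overlapping groups. RefSeq promoter windows are held for 32 of the 48 genes, and those of the fibrillar genes differ in base composition. Shown are the 250 bases before the RefSeq start (build GRCm38.p6) of Col1a2 at chr6:4505368-4505617, plus strand, and of Col3a1 at chr1:45311288-45311537, plus strand, since these are the type I and type III genes with a window. Capitals mark CCAAT, read on either strand, and TATAAA, read on the sense strand.
Col1a2: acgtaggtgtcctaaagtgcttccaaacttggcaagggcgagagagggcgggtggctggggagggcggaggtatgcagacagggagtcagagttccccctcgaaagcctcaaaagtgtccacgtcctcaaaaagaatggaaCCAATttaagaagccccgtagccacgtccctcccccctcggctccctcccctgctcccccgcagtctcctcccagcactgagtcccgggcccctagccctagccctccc
Col3a1: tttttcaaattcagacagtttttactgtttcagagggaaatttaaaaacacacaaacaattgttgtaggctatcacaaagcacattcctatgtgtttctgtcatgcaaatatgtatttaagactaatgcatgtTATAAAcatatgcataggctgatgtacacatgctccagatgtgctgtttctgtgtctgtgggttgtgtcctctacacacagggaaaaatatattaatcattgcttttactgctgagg
The Col1a2 stretch is 62% G and C and the Col3a1 stretch 35.2%.

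**Figure D2:**
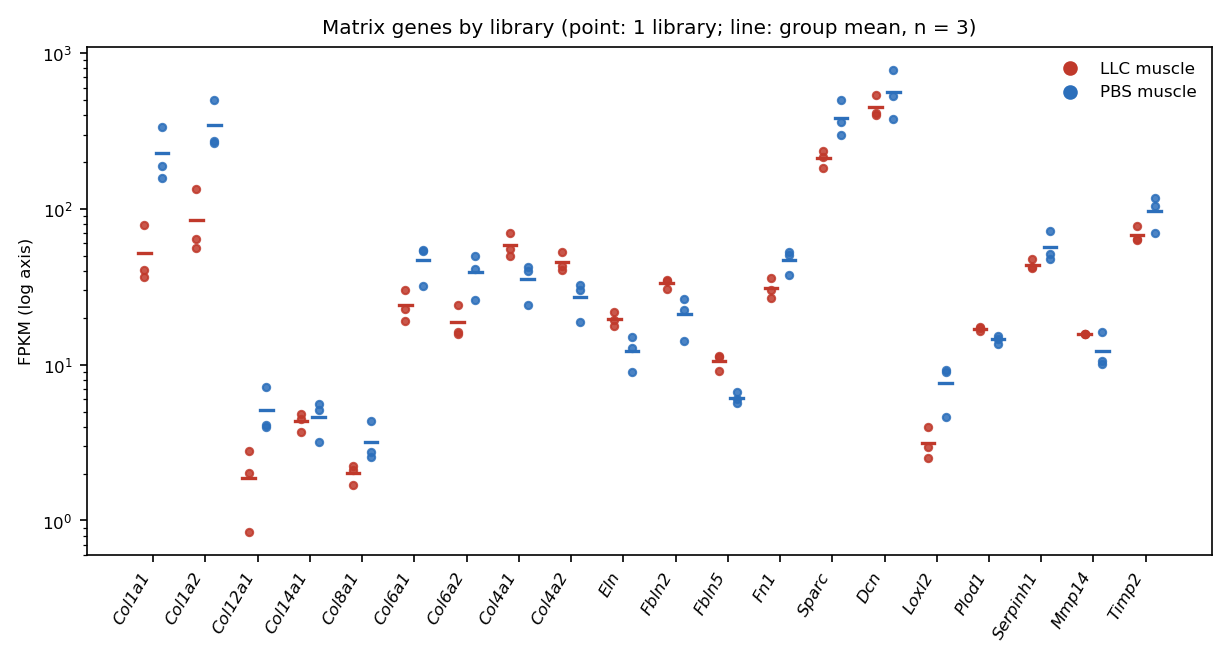
FPKM of 20 matrix genes in each library on a log axis, with LLC points left of PBS points and lines at the group means (n = 3). For Col1a1, LLC libraries sit between 36.3 and 79.0 FPKM and PBS libraries between 159 and 334 FPKM, while for Col4a1 the order is turned round.

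Collagen VI and the fibril-associated and network collagens were also below 0, all 3 and all 4 genes, with medians of -0.92 and -0.49. Collagen VI forms beaded filaments at the surface of muscle fibres. Col6a1 was at 30.4, 19.2 and 22.6 FPKM in LLC muscle, against 54.6, 53.7 and 32.2 in PBS muscle. Col6a2 was at 24.0, 15.9 and 16.2 FPKM in LLC muscle, against 41.0, 50.1 and 26.1 in PBS muscle. Neither gene's groups overlapped, and the log2 differences were -0.92 (SE 0.27, limma adjusted p = 0.461) and -1.0002 (SE 0.28, adjusted p = 0.443). Col6a3 overlapped between groups, with a log2 difference of -0.58. Col12a1, a collagen on fibril surfaces that is common in tendon, was at 2.79, 2.02 and 0.841 FPKM in LLC muscle, against 4.00, 7.19 and 4.10 in PBS muscle. The lowest value of all 6 was LLC 3, the library with the fewest tendon transcripts, and the log2 difference was -1.10 (SE 0.34, limma adjusted p = 0.489). Col8a1, a network collagen of vessel walls, was at 2.10, 2.23 and 1.70 FPKM in LLC muscle, against 2.55, 4.32 and 2.75 in PBS muscle (-0.47, SE 0.20, limma adjusted p = 0.679). Col14a1, another fibril-surface collagen, was at 4.45, 4.83 and 3.71 FPKM in LLC muscle, against 5.59, 5.09 and 3.20 in PBS muscle, with overlapping groups and a log2 difference of -0.06. Between LLC 3 and PBS 1 alone that difference was -0.48. Col16a1 overlapped as well (-0.51).

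The basement membrane class did not share the lower levels of the fibrillar class. Of its 11 members 8 were above 0 and 3 below, with a median of 0.12. Col4a1 was at 49.9, 55.5 and 70.5 FPKM in LLC muscle, against 40.1, 42.1 and 24.2 in PBS muscle. Col4a2 was at 40.5, 42.8 and 52.9 FPKM in LLC muscle, against 30.2, 32.3 and 18.7 in PBS muscle. For both chains every LLC library lay above every PBS library. The log2 differences were 0.73 (SE 0.25, limma adjusted p = 0.563) and 0.75 (SE 0.24, adjusted p = 0.506), so neither passed, and with the bone score they were 0.62 and 0.66. The other 9 members overlapped between groups. Lama4, Lamb2, Col18a1, Lamc1, Col15a1 and Nid2 had log2 differences of 0.26, 0.22, 0.12, 0.08, -0.28 and -0.32. Among the laminins, Lamb1 had the highest difference, at 8.99, 8.70 and 13.2 FPKM in LLC muscle, against 8.77, 8.44 and 4.84 in PBS muscle. Lama2, the alpha chain of the main muscle laminin, averaged 6.55 ± 1.14 FPKM in LLC and 6.44 ± 2.65 FPKM in PBS muscle (SD, n = 3 each). Nid1, which bridges laminin and collagen IV, averaged 27.8 ± 3.59 and 31.1 ± 13.7 FPKM in LLC and PBS muscle. Its 3 PBS libraries ran from 16.9 to 44.1 FPKM, a wider span than the LLC libraries, at 25.01 to 31.9 FPKM.

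Col4a1 and Col4a2 are transcribed away from each other. Their RefSeq starts on chromosome 8 are 21 bases apart, and the 300-base windows around them share 78 bases. The authors' counts used reads of both strands, so reads over the few shared exon bases cannot be assigned to 1 gene. The 250 bases before each start, both under the same ATAC peak, are shown because the 2 genes kept a near constant ratio over the libraries. They lie at chr8:11312827-11313076 on the minus strand for Col4a1 and at chr8:11312555-11312804 on the plus strand for Col4a2 (GRCm38.p6). Capitals mark CCAAT on either strand, and neither stretch holds TATAAA.
Col4a1: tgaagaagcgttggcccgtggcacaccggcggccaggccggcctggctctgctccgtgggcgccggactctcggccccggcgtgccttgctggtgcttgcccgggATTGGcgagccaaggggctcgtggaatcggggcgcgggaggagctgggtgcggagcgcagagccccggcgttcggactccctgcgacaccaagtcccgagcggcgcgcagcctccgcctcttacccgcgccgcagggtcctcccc
Col4a2: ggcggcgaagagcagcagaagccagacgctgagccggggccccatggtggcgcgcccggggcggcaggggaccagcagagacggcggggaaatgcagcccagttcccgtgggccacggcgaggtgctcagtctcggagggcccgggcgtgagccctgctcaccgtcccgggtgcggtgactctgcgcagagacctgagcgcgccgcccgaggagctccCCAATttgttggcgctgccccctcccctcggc
Both stretches are rich in G and C, at 74.4% and 73.6%.

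Among all member windows of 300 bases (250 before and 50 after the start), 26 of 37 held the GC box letters GGGCGG on either strand (70.3%), against 35.7% of 32841 RefSeq windows. CCAAT on either strand was in 35.1% of member windows and 37.4% of all. TATAAA on the sense strand was in 8.11% and 8.32%, and the AP-1 letters TGANTCA on either strand in 2.70% and 7.81%. A match of letters is a description and no sign of a factor bound there.

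Of the 5 elastic fibre genes 4 were above 0, with a median of 0.66. In 3 of them the LLC libraries lay wholly above the PBS libraries (9.5% of all genes tested). Fbln5 is a fibulin needed to assemble elastic fibres. It was at 9.04, 11.4 and 11.2 FPKM in LLC muscle, against 6.01, 6.64 and 5.68 in PBS muscle. The groups were well apart, with a log2 difference of 0.69 (SE 0.13, limma adjusted p = 0.233), and DESeq2 called the gene higher (adjusted p = 0.00747). Eln, which encodes elastin itself, was at 17.8, 19.3 and 21.8 FPKM in LLC muscle, against 12.8, 15.01 and 8.95 in PBS muscle. Fbln2, a fibulin of vessel walls and basement membranes, was at 30.5, 34.3 and 34.9 FPKM in LLC muscle, against 26.5, 22.3 and 14.3 in PBS muscle. Neither gene's groups overlapped, with log2 differences of 0.66 (SE 0.20, limma adjusted p = 0.489) and 0.67 (SE 0.23, adjusted p = 0.562). Fbn1, the main protein of the microfibrils that elastin is laid on, was lower on average, at 8.39 ± 2.40 FPKM in LLC and 12.0 ± 4.85 FPKM in PBS muscle (SD, n = 3 each), with overlapping groups. Fbln1 averaged 12.9 ± 3.53 and 11.9 ± 1.41 FPKM in LLC and PBS muscle, a log2 difference of 0.07 that was -0.47 between LLC 3 and PBS 1.

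All 6 matrix glycoproteins and leucine-rich proteoglycans lay below 0 (median log2 difference -0.54). Sparc, a collagen-binding protein that aids fibril formation, was at 235, 184 and 214 FPKM in LLC muscle, against 361, 498 and 296 in PBS muscle. Fn1, which encodes fibronectin, was at 35.8, 30.0 and 26.8 FPKM in LLC muscle, against 50.5, 53.2 and 37.5 in PBS muscle. In both genes all LLC libraries lay below all PBS libraries, with log2 differences of -0.84 (SE 0.22, limma adjusted p = 0.411) and -0.59 (SE 0.18, adjusted p = 0.503), and DESeq2 called Sparc lower (adjusted p = 0.0248). Dcn, which encodes decorin, a proteoglycan that spaces collagen fibrils, had the highest FPKM of the 48 genes. It was at 538, 399.9 and 411 FPKM in LLC muscle, against 778, 532 and 376 in PBS muscle, with overlapping groups and a log2 difference of -0.27 (SE 0.29), or -0.92 between LLC 3 and PBS 1. Postn, Lum and Bgn, which encode periostin, lumican and biglycan, had log2 differences of -0.73, -0.49 and -0.44 and overlapped.

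The collagen-modifying enzymes split by enzyme. Loxl2, a lysyl oxidase that crosslinks collagen IV and fibrils, was at 4.00, 2.53 and 2.95 FPKM in LLC muscle, against 8.98, 9.23 and 4.59 in PBS muscle. Its groups did not overlap, and the log2 difference of -1.01 (SE 0.28, limma adjusted p = 0.427) was the largest of the class, with a DESeq2 adjusted p of 0.0461. Serpinh1, the chaperone HSP47 that binds folding procollagen, was at 47.4, 42.2 and 41.5 FPKM in LLC muscle, against 51.5, 71.7 and 47.5 in PBS muscle, so LLC 1 and PBS 3 nearly met (-0.35, SE 0.18, limma adjusted p = 0.797). Plod1, a lysyl hydroxylase that prepares collagen for crosslinking, was instead at 16.5, 17.4 and 17.2 FPKM in LLC muscle, against 15.4, 14.7 and 13.5 in PBS muscle. These groups did not overlap, though the log2 difference was only 0.22 (SE 0.10, limma adjusted p = 0.740). Loxl1 was lower without overlap (-0.43). Lox, P4ha1, P4ha2 and Plod2 overlapped, with log2 differences of -0.34, -0.19, 0.13 and 0.07. P4ha1 and P4ha2 encode the prolyl 4-hydroxylase subunits that stabilise the collagen helix. P4ha1 averaged 10.7 ± 0.532 FPKM in LLC and 12.4 ± 2.04 FPKM in PBS muscle (SD, n = 3 each).

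No metalloproteinase or inhibitor among the 48 genes separated the groups. Mmp14, a membrane-bound collagenase that activates Mmp2, was at 15.8, 15.7 and 15.7 FPKM in LLC muscle, against 10.1, 16.3 and 10.6 in PBS muscle. The LLC values were nearly equal, and PBS 2 exceeded them. Timp2, an inhibitor that also takes part in activating Mmp2, was at 77.9, 63.8 and 63.5 FPKM in LLC muscle, against 117, 105 and 70.1 in PBS muscle, where PBS 3 was below LLC 1. Mmp2, a gelatinase that cuts collagen IV, averaged 36.6 ± 5.21 FPKM in LLC and 48.2 ± 14.1 FPKM in PBS muscle (SD, n = 3 each). Timp3, an inhibitor that stays bound to the matrix, averaged 54.6 ± 3.22 and 54.1 ± 10.1 FPKM in LLC and PBS muscle. Timp1, which is induced in inflammation, was at 2.61, 2.73 and 1.58 FPKM in LLC muscle, against 0.733, 5.46 and 4.78 in PBS muscle. Its lowest library in each group, LLC 3 and PBS 1, was the one lowest in bone and neutrophil markers, and the log2 difference of -0.30 was 0.15 with the bone score.

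Set within each library, fibrillar genes stood closer to basement membrane genes in LLC muscle. The mean log2(FPKM + 1) of the 6 fibrillar genes exceeded that of the 11 basement membrane genes by 1.02, 0.52 and 0.21 in LLC 1 to 3, and by 1.61, 2.29 and 2.08 in PBS 1 to 3. The largest LLC gap was smaller than the smallest PBS gap. Col1a1 was at 1.58, 0.727 and 0.515 times the FPKM of Col4a1 in LLC 1 to 3, against 3.96, 7.92 and 7.77 times in PBS 1 to 3, so in 2 LLC libraries the type IV chain was the more abundant per length. Fibrillar collagens made up 11.3% to 17.3% of the summed FPKM of the 48 genes in LLC and 23.1% to 34.4% in PBS muscle. Basement membrane genes made up 11.3% to 16.5% in LLC and 6.48% to 8.06% in PBS muscle. Their own summed FPKM overlapped, at 221.5, 209.6 and 261.6 in LLC 1 to 3, against 223.4, 210.5 and 124.7 in PBS 1 to 3. The 48 genes summed to 1689 ± 237 FPKM in LLC and 2616 ± 628 FPKM in PBS muscle (SD, n = 3 each), and the group ranges of 1521 to 1960 and 1924 to 3151 FPKM overlapped.

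Ratios between chains of the same molecule overlapped between groups. Col1a1 was at 0.590 to 0.650 times the FPKM of Col1a2 in LLC and 0.598 to 0.694 times in PBS muscle. Col4a1 over Col4a2 was 1.23 to 1.33 in LLC and 1.30 to 1.33 in PBS muscle, and Col6a1 over Col6a2 was 1.21 to 1.39 in LLC and 1.07 to 1.33 in PBS muscle. Col6a1 over Col6a3 was 2.42 to 3.05 in LLC and 3.00 to 3.63 in PBS muscle, ranges that barely overlapped. Between molecules the ranges were apart: Col3a1 over Col1a1 was 1.24 to 1.83 in LLC and 0.487 to 1.12 in PBS muscle, without overlap, and Col5a1 over Col1a1 was 0.109 to 0.144 in LLC and 0.0520 to 0.0828 in PBS muscle.

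**Figure D3:**
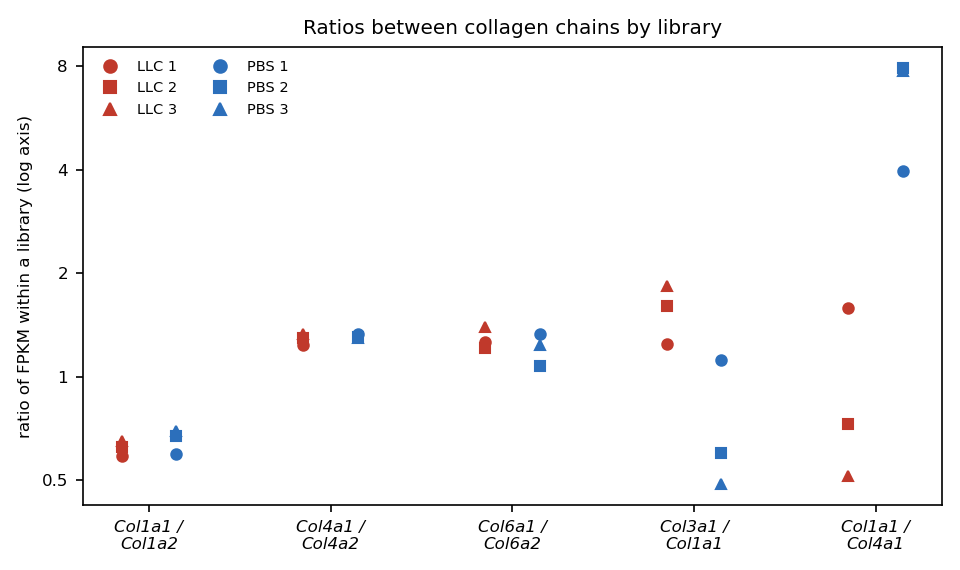
Ratio of FPKM between collagen chains within each library, on a log axis, with LLC left of PBS and a marker shape per library number. The ratios within types I, IV and VI overlap between groups, while Col1a1 over Col4a1 is 0.515 to 1.58 in LLC and 3.96 to 7.92 in PBS muscle.

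Related matrix genes outside the 48 gave a mixed picture, and 0 of 65 tested (of 94 listed) passed in limma. An unadjusted limma p under 0.05 was reached by 15, of which 3 were higher (5.82% of all genes tested) and 12 lower (1.82%). Of 8 tested basement membrane genes 6 were above 0, with a median of 0.22. Lama5, a laminin chain of vessel and epithelial membranes, was at 6.35, 5.81 and 6.72 FPKM in LLC muscle, against 5.16, 4.02 and 2.55 in PBS muscle. Agrn and Pxdn, which encode agrin and the collagen IV crosslinking peroxidasin, overlapped (0.22 and 0.27). Of 8 other collagens 5 were below 0, with a median of -0.70. Col11a1, a fibrillar chain of cartilage that also occurs in tendon and bone, was at 1.46, 0.484 and 0.098 FPKM in LLC muscle, against 2.53, 7.40 and 3.82 in PBS muscle. Col11a2, which DESeq2 called lower (adjusted p = 0.0491), was at 3.16, 1.34 and 0.722 FPKM in LLC muscle, against 2.70, 13.6 and 8.23 in PBS muscle. Col8a2 had a log2 difference of -1.07.

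Among 17 tested genes of collagen processing 12 were below 0 (median -0.31). Pcolce, an enhancer of procollagen C-proteinase, was at 40.8, 37.6 and 27.0 FPKM in LLC muscle, against 57.9, 69.4 and 47.1 in PBS muscle. Bmp1, that proteinase, and Adamts2, which removes the other propeptide, had log2 differences of -0.49 and -0.60. Of 19 other glycoprotein, proteoglycan and elastic fibre genes 14 were below 0 (median -0.23), led by Mfap4, at 8.18, 3.25 and 1.69 FPKM in LLC muscle, against 22.9, 18.7 and 11.1 in PBS muscle, with Ogn at -1.02 and Mfap2 at -0.65. Of 13 other metalloproteinases and inhibitors 7 were above 0 (median 0.01). Adamts1, a protease of versican, was at 12.3, 14.1 and 21.1 FPKM in LLC muscle, against 11.1, 7.92 and 5.11 in PBS muscle. Mmp11 was also higher without overlap (0.53) and Mmp23 lower (-0.54). The groups overlapped in Mmp8 and Mmp9, the collagenase and gelatinase of neutrophils. Mmp9 was at 71.8, 100.5 and 7.20 FPKM in LLC muscle, against 4.64, 88.3 and 117 in PBS muscle, low in the 2 libraries short of neutrophil transcripts.

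Markers of 3 cell types moved with the groups. Tendon markers summed to 256, 91.2 and 39.2 FPKM in LLC muscle, against 428, 389 and 291 in PBS muscle, without overlap. All 6 tested (of 7) were below 0. Of these, 3 were lower without overlap (3.94% of all genes tested), among them Tnmd (-2.46) and Chad (-2.95). Fmod, which encodes fibromodulin, was at 112, 34.3 and 11.0 FPKM in LLC muscle, against 227, 191 and 134 in PBS muscle. Thbs4 was at 76.0, 35.6 and 22.8 FPKM in LLC muscle, against 78.5, 70.0 and 63.2 in PBS muscle, where LLC 1 overlapped. Endothelial markers summed to 204, 220.0 and 246 FPKM in LLC muscle, against 124, 124 and 102 in PBS muscle. Of these 7 markers 6 were above 0, with Pecam1 at 72.1, 81.3 and 91.8 FPKM in LLC muscle, against 35.1, 37.3 and 31.0 in PBS muscle. Smooth muscle and pericyte markers summed to 319.7, 285 and 267 FPKM in LLC muscle, against 264, 229 and 193 in PBS muscle, with all 7 above 0. For 10 fibroblast markers the sums, most of them Gsn, overlapped, at 1012, 895 and 1007 FPKM in LLC muscle, against 1165, 1124 and 792 in PBS muscle. Of the 9 tested, Ly6a was higher without overlap (9.5% of all genes tested), at 109, 127 and 130.4 FPKM in LLC muscle, against 85.7, 69.1 and 52.8 in PBS muscle. Lower without overlap were 3 (3.94% of all genes tested), Cd248 (-0.89), Pi16 (-0.51) and Dpp4 (-0.49). The other 5, Gsn among them, overlapped. The part of tendon, bone and vessel cells in the levels of the collagens was not tested.

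**Figure D4:**
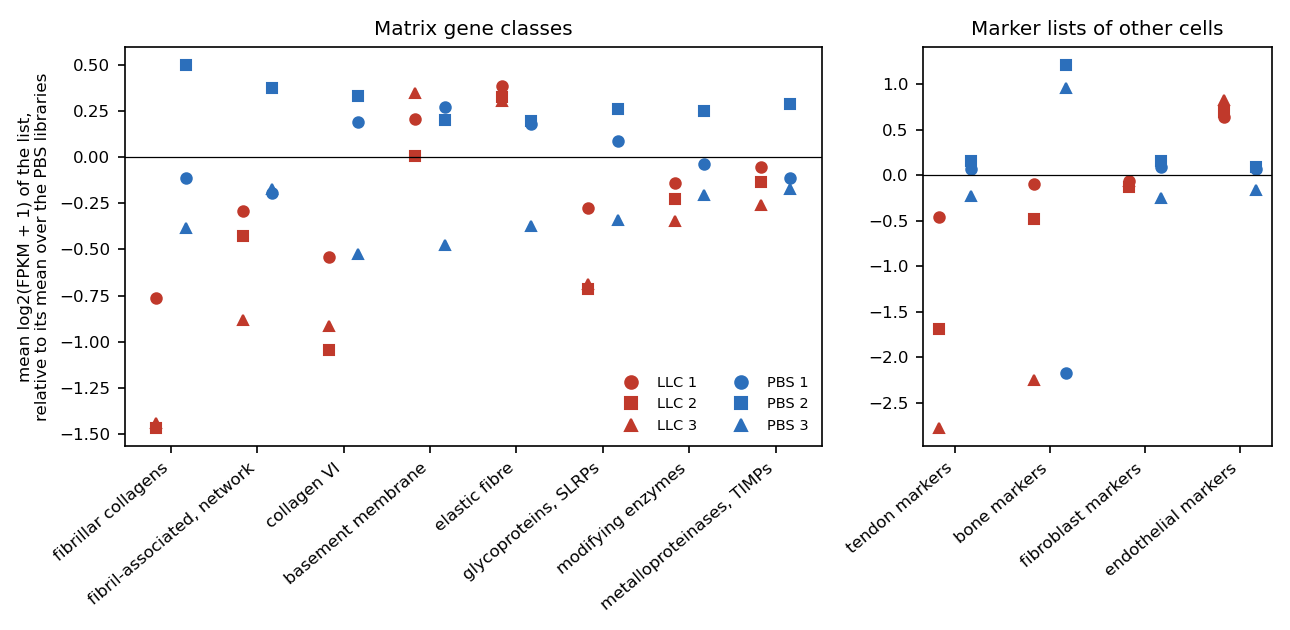
Mean log2(FPKM + 1) of each class (left) and of 4 marker lists (right) in every library, relative to the list's mean over the PBS libraries. Fibrillar collagens and tendon markers lie lower in the 3 LLC libraries than in the 3 PBS libraries, endothelial markers lie higher, and bone markers are low in LLC 3 and PBS 1.

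In C2C12 myotubes the 264 peaks at the 47 genes were compared between C26 medium and control. Libraries held 10.1 to 18.2 M tags, which the authors scaled to 10 M per library. Control 1 had 27.0% of its tags in peaks, against 12.0% to 13.5% in the C26 libraries and 13.1% and 17.9% in the other controls. The median log2 difference of all 37358 tested peaks was -0.54 as deposited and -0.02 after median-of-ratios scaling, so counts of calls are given on both scales. As deposited, limma called 8 of 258 tested member peaks lower (1.88% of all tested) and 1 higher (1.15%), and 3.03% of all were called either way. After scaling it called 35 of 259 lower (12.7%) and 44 higher (17.1%), against 29.8% either way over all. With edgeR on recovered reads, 35 were lower (12.8%) and 42 higher (17.6%, and 30.4% either way). After scaling the members' shares were close to those of all peaks. The 3 peaks of Loxl2 held no tags. The deposited calls also turned on single libraries. Among members there were 139 lower calls without control 2, and 23 lower and 10 higher without control 1. Without any one of the other 4 libraries there were at most 1 lower and 1 higher. Calls over all peaks moved with them. In either direction they were 20607 of 37366 tested without control 2, 4565 of 37324 without control 1, and 123 to 192 in the other 4 fits.

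The 9 peaks called as deposited were called in the same direction after scaling, also without control 1. The peak in intron 1 of Col8a1, at chr16:57701655-57702022 (mm10), had 2.34, 6.25 and 3.57 scaled tags in C26 medium 1 to 3, against 21.5, 16.5 and 23.2 in controls 1 to 3. It had the largest fall, with a log2 difference of -2.14 (SE 0.47, limma adjusted p = 0.00107) as deposited and -1.67 after scaling. A peak in the last intron of Col6a2, 20515 bp from the annotated start, had 11.7, 9.02 and 11.0 tags in C26 medium and 54.95, 25.99 and 34.1 in controls. That near Postn, 82968 bp away and intergenic, had 8.97, 5.90 and 9.06 tags in C26 medium and 40.7, 15.2 and 22.2 in controls. Their differences were -1.71 and -1.50 as deposited and -1.20 and -1.001 after scaling. For each of these 3 peaks every C26 library lay below every control. The intergenic peak 12060 bp from the start of Mmp14 had 30.0, 28.1 and 39.3 tags in C26 medium and 129, 63.1 and 93.9 in controls. That in intron 2 of Loxl1 had 49.5, 39.2 and 53.8 tags in C26 medium and 147, 96.9 and 97.4 in controls. That in intron 23 of Col14a1 had 16.4, 23.6 and 23.9 tags in C26 medium and 75.9, 33.8 and 55.9 in controls. The peak at -39140 bp from the start of Col4a2, which is inside intron 1 of Col4a1, had 10.5, 7.64 and 16.8 tags in C26 medium and 38.9, 24.0 and 34.6 in controls. These 4 also did not overlap, with differences of -1.48, -1.22, -1.28 and -1.44 as deposited and -0.96, -0.70, -0.76 and -0.94 after scaling. Distance alone ties these peaks to their genes.

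Timp3 had 1 peak called in each direction as deposited, and 2 lower and 4 higher after scaling, of 10 tested. In its intron 1, 27972 bp from the start at chr10:86328219-86328550, tags were 24.97, 23.6 and 28.8 in C26 medium and 19.7, 4.05 and 8.90 in controls. This was the only member peak called higher as deposited, with a log2 difference of 1.402 (SE 0.43, limma adjusted p = 0.0413), and of 1.92 (SE 0.25) after scaling. At 89636 bp, chr10:86389598-86390498, tags were 41.4, 39.9 and 45.0 in C26 medium and 173, 89.4 and 120.1 in controls. That peak fell by 1.53 as deposited and by 0.999 after scaling (adjusted p = 0.00318 and 8.64e-11), and it lies in an intron of Syn3, the gene within which Timp3 sits. The Timp3 promoter peak had 30.8, 26.4 and 32.7 tags in C26 medium and 95.6, 45.6 and 64.8 in controls. It was called lower only after scaling, at -0.59 (SE 0.13, limma adjusted p = 0.000406), against -1.11 (adjusted p = 0.0726) as deposited. The 250 bases before the Timp3 start, chr10:86300162-86300411 on the plus strand (GRCm38.p6), partly under this peak, hold neither CCAAT nor TATAAA and are shown because this promoter peak had the lowest called difference.
Timp3: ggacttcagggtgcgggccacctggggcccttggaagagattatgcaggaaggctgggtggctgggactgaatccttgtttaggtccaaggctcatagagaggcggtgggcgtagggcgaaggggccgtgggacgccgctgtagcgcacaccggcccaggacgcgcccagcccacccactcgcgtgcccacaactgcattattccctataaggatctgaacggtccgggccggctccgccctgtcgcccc

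A peak within 1000 bp of a start was found at 41 of the 48 genes. The shared Col4a1 and Col4a2 peak was annotated to Col4a1, so Col4a2 has none. As deposited all 41 differences were below 0, as were 9981 of all 10146 promoter peaks, and the medians were -0.68 and -0.69. Limma called 0 of the 41 (0.0493% of all promoter peaks were called higher and 0.986% lower), and 16 had an unadjusted p under 0.05, against 43.4% of all promoter peaks. After scaling the median was -0.15, with 9 called lower (21.8% of all promoter peaks) and 1 higher (2.19%). These shares, too, match the background. The 9 were at Col1a1, Col5a1, Col6a2, Fn1, Lamc1, Lox, Plod2, Serpinh1 and Timp3. The Col1a1 peak lies in intron 1, 982 bp from the annotated start, and does not cover that start. It had 62.0, 47.2 and 59.3 tags in C26 medium and 161, 78.0 and 113 in controls. Its log2 difference was -0.47 (SE 0.10, limma adjusted p = 0.000423) after scaling and -0.997 (adjusted p = 0.0819) as deposited. Fn1 had 77.3, 83.3 and 85.4 tags in C26 medium and 241, 105 and 155 in controls (-0.40 after scaling, adjusted p = 0.000649, and -0.94 as deposited, adjusted p = 0.0857). The peak called higher after scaling was that of Loxl1, at 0.27 (limma adjusted p = 0.0490), against -0.26 and overlapping tags as deposited. Of the 41 promoter peaks, 15 were above 0 after scaling.

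The promoter peaks of the other genes described in muscle did not pass after scaling. Some differed by as much as the called ones, with Lama4 at -0.66, Mmp2 and Nid1 at -0.42 each and Col18a1 at 0.43. Col1a2 was at -0.14, Col4a1 at 0.06, Col6a1 at 0.03, Fbln2 at -0.02, Fbln5 at 0.09, Sparc at -0.12, Dcn at -0.19, Plod1 at 0.04, Mmp14 at -0.15 and Timp2 at -0.28. Col12a1 and Col8a1 were at 0.21 and 0.43. As deposited each of these genes was below 0, so Col4a1, Col6a1, Fbln5, Plod1, Col12a1, Col8a1 and Col18a1 changed sign with the scaling.

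**Figure D5:**
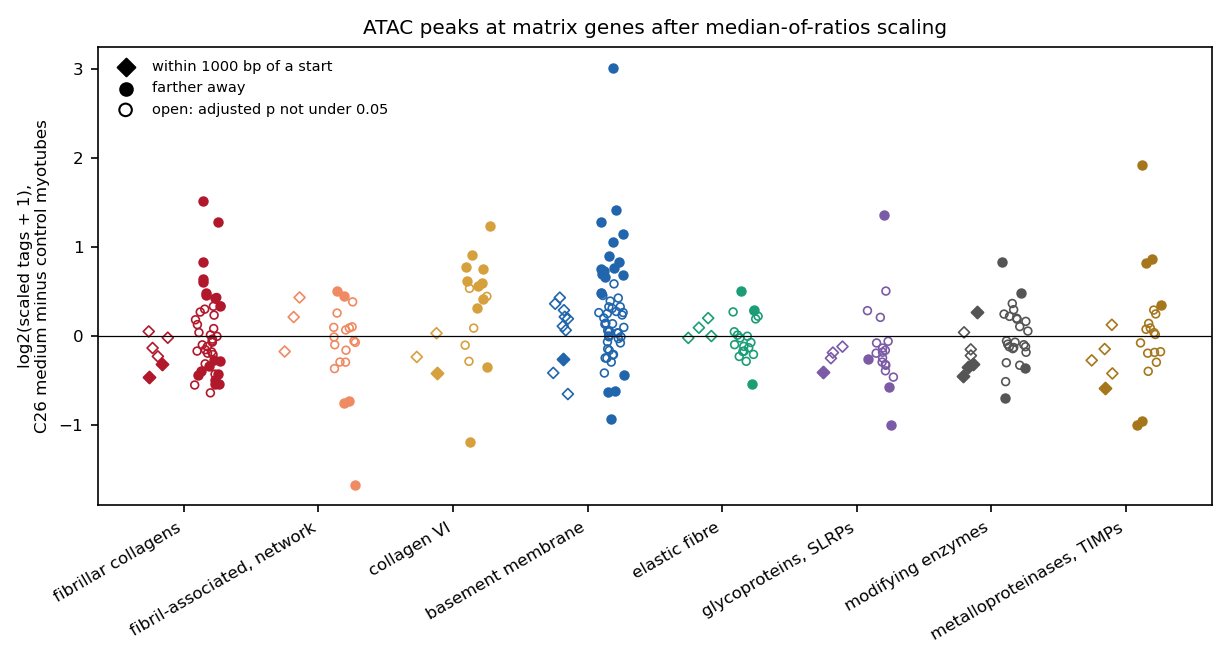
Log2 difference between C26 medium and control myotubes for the peaks at the 48 genes, after median-of-ratios scaling, by class, with promoter peaks (diamonds) left of peaks farther away (circles). Filled symbols have a limma adjusted p under 0.05. The highest point, at 3.01, is a Nid1 peak near the filter, and the lowest, at -1.67, in Col8a1.

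Away from promoters the balance of calls after scaling is given by class; differences between classes were not tested. Of 16 such collagen VI peaks 9 were called higher and 2 lower, and of 55 basement membrane peaks 14 were higher and 4 lower. Among all peaks away from promoters 23% were called higher and 9.28% lower. Of 44 fibrillar peaks 9 were higher and 9 lower, and among 19 at glycoproteins and proteoglycans 1 was higher and 3 lower. Fibril-associated and network collagens had 2 higher and 3 lower of 19, and elastic fibre genes 2 higher and 1 lower of 20. Modifying enzymes had 2 higher and 2 lower of 25, and metalloproteinases and inhibitors 4 higher and 2 lower of 19. Peaks annotated to 1 gene share its region and are not independent. As deposited the same peaks gave 0 higher and 1 lower call for collagen VI, 0 and 1 for basement membrane and 0 and 0 for fibrillar collagens, against 1.59% higher and 2.26% lower among all peaks away from promoters. Inside intron 1 of Nid1, at chr13:13454176-13454539, tags were 10.1, 7.98 and 6.32 in C26 medium and 0.45, 0.68 and 0 in controls. This peak averaged under 5 tags as deposited and passed that filter after scaling only through the C26 libraries, so its difference of 3.01 after scaling is given without a test, though it is among the 14 above. After the Timp3 peak in intron 1 (1.92), the next rises were a peak at -35303 bp from the start of Col3a1, with 31.2, 26.03 and 38.5 tags in C26 medium and 30.4, 11.5 and 9.89 in controls (1.52 after scaling, 1.003 as deposited), and one at -6035 bp from that of Nid2 (1.41 after scaling, 0.89 as deposited). Control 1 overlapped the C26 libraries at the Col3a1 peak as deposited.

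The RNA and ATAC differences had little in common across genes. Over the 41 genes with a promoter peak, Spearman's rho between the scaled promoter difference in myotubes and the RNA difference in muscle was 0.196, a description over genes that share the same 12 libraries.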

How the data were processed

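The deposited RNA table holds FPKM; per the file headers, the authors used HOMER on exons in mm10, took reads of either strand and condensed each gene to 1 transcript. The deposited ATAC table holds signal: tag numbers in merged peaks, brought to 10 M tags a library per the file headers. The submitters' processing notes name HISAT2, HOMER, DESeq2, Bowtie2 and MACS2 with GRCm38 and mm10 without versions. Every deposited value checked was a whole number of read ends, each 0.5 tags, which gave back read ends. This held for 100% of RNA values under 3000 bp, above 0.02 FPKM and up to 20 steps, within 0.1 of a step. It also held for 100% of ATAC values, at a wider tolerance.

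Tests covered the 12981 of 20194 genes averaging 1 FPKM or more and the 37358 of 38244 peaks averaging 5 tags or more, on log2(value + 1), which understates folds of low genes, with limma 3.58.1 in R 4.3.3 (lmFit, eBayes with trend, two-sided, Benjamini-Hochberg over all, threshold 0.05). Recovered reads were tested with edgeR 4.0.16 (quasi-likelihood) and, for RNA, DESeq2 1.42.0 as alternatives. The fits were tested on simulated data. The genes and the lists were chosen with earlier results of these data known. Genes given by library are, per class, the 2 with the smallest limma p and the one with the highest FPKM; of other matrix lists, up to 3 with the smallest p; of marker lists, the highest in FPKM; all called peaks as deposited, and promoter peaks of those genes. Col3a1, Col5a1, Lamb1, Timp1, Mmp9, Tnmd, Chad, Cd248, Pi16, Dpp4 and the Nid1, Col3a1 and Nid2 peaks were singled out after their values were seen. Alternatives were pseudocounts, filters, scalings, no trend, a stricter threshold, replicate numbers as a block, a bone score and each library left out. Promoters are RefSeq windows (GRCm38.p6). Plots used Python 3.11.15 and matplotlib 3.10.9. No other genome sequence was used here.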

Additional observations from a re-analysis of the deposited data

How the results depend on the processing

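Counts of RNA genes called were 0 as reported and in each fit without 1 library, 1 with a mean of at least 5, median-of-ratios scaling or quantile normalization, and 312 with DESeq2 (1 member higher, 5 lower). Leaving out 1 library gave 12 to 26 members wholly below PBS, with 26 without PBS 3 and 20 without LLC 1. Such a count cannot fall when a library is left out. The metalloproteinase class median ranged from -0.37 to 0.025 and turned above 0 without PBS 2, and Col14a1 ranged from -0.25 to 0.072. With PBS 1 and LLC 3 both left out, chosen after seeing the data, Col14a1 and Dcn turned to 0.16 and 0.054. The fibril-associated class gave no value with a mean of at least 5, since no member passed that filter.

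ATAC calls numbered 1132 as reported, 471 with a mean of at least 20 and 426 at an adjusted p under 0.01, against 2602 with no trend, 11048 with quantile normalization, 11131 with median-of-ratios scaling and 11354 with edgeR. Scaling without control 1, also chosen after seeing the data, gave 9471, with 32 member peaks higher and 35 lower. Member calls were 0 higher with a pseudocount of 5, 2 with no filter, 0 higher and 5 lower with a mean of at least 20, 44 and 35 with median-of-ratios, 36 and 44 with quantile, 42 and 35 with edgeR, 15 lower with no trend, and 0 and 4 under 0.01. Leaving out 1 library gave 123 to 20607 calls in all, 0 to 10 member peaks higher and 0 to 139 lower. The median promoter difference was -0.15 with median-of-ratios scaling and -0.15 with edgeR. Promoter differences that turned above 0 with median-of-ratios, quantile and edgeR were Fbln5 (0.090, 0.10 and 0.11), Col12a1 (0.21, 0.21 and 0.18) and Col8a1 (0.43, 0.35 and 0.43), and with median-of-ratios and edgeR Col4a1 (0.062 and 0.095), Col6a1 (0.028 and 0.015) and Plod1 (0.038 and 0.061). Without 1 library Col12a1 ranged from -0.72 to 0.088 and Col8a1 from -0.31 to 0.29 (each above 0 without control 1 alone). The cause was not tested.

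Deviations from the group means in same-numbered libraries had correlations of -0.09, 0.60 and -0.60 in RNA and between -0.02 and 0.01 in ATAC. In RNA the differently numbered LLC 3 and PBS 1 were at 0.63. The labels do not say whether numbers pair libraries, and such correlations with 3 libraries a group cannot settle it. With the replicate number as a block limma called 0 genes and 1071 peaks, 1 member peak higher and 8 lower. Low counts limit the peaks under about 5 tags, which were not tested.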
